A study of Mus musculus with 5 samples.

Results

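The oxidative stress and metal response was followed by 10 genes through single-cell RNA sequencing of 4T1 mammary tumors: the metallothioneins Mt1 and Mt2, and Hmox1, Nqo1, Gclm, Slc7a11, Gstm1, Txnrd1, Srxn1 and Osgin1. They were chosen by symbol, as 10 of the 32285 features in the T cell libraries and of the 54987 features in the whole-tumor libraries. All 10 were present in all 5 libraries. 4T1 is a mouse triple negative mammary carcinoma line, here growing orthotopically in BALB/c mice, 12 weeks of age by the labels. Of the 5 libraries, 3 were made from whole tumors: a saline control, a tumor that responded to doxorubicin (DOX; sensitive) and one that grew through it (resistant). The other two held T cells enriched from sensitive and from resistant tumors by magnetic removal of other cells, each from 3 pooled tumors by the study's methods. DOX was given at 5 mg/kg in 3 doses, 3 days apart. There was 1 library per group, so no replicate error exists for any difference, and every interval covers counting error only. The library titled resistant whole tumor carries Resistant in its sensitivity field, while its source field, like that of the control, names sensitive tumors; title and sensitivity field were followed.

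Metallothioneins are small cysteine-rich proteins that bind zinc and copper and scavenge oxidants, and zinc switches their genes on through the transcription factor MTF1 at metal response elements. Most of the remaining members are textbook targets of NRF2, which KEAP1 holds in check until oxidants or electrophiles release it onto antioxidant response elements. DOX is itself a redox-cycling quinone, which makes both systems of interest in treated tumors.

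Cells were sorted in silico into 5 lineage gates (cancer, fibroblast, macrophage, neutrophil and T), each needing at least 2 of 6 marker transcripts and clearly more of them than of any other lineage. Levels are in CPM, a gene's UMIs summed over the gate and scaled to the gate's total UMIs, so they are relative and not per cell. In the T cell libraries, the T gate held 1961 of 3448 kept cells (sensitive) and 1821 of 3091 (resistant), so cells other than T cells remained after enrichment. The same 2 libraries held 797 and 573 fibroblast-gated cells, 172 and 137 macrophage-gated cells, 137 and 162 neutrophil-gated cells and 101 and 132 cancer-gated cells. The whole-tumor libraries were small, with 488 (control), 269 (sensitive) and 263 (resistant) kept cells, mostly neutrophils (295, 204 and 133). Total depth was 31690845 and 35908799 UMIs in the T cell libraries and 537293 to 1731940 UMIs in the whole tumors. The median mitochondrial share was higher in the resistant T cell library in every gate, for example 5.68% against 2.56% in the T gate. The pair of T cell libraries shared 31 cell barcodes, 18 of them among kept cells. They were counted with another Cell Ranger version and gene annotation than the whole tumors, so no ratio is taken between the 2 kinds of library.

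Mt1 and Mt2 are neighbors on chromosome 8 (GRCm38): Mt2 at chr8:94172664-94173568 and Mt1 at chr8:94179082-94180327, both on the plus strand and 5513 bases apart. The 250 bases before each RefSeq start (GRCm38.p6) are shown because both genes rose and fell together from cell to cell. Capitals mark matches, on either strand, to a metal response element core (TGCACNC or TGCGCNC) and to an antioxidant response element core (TGACNNNGC).
Mt1, chr8:94178839-94179088, plus strand: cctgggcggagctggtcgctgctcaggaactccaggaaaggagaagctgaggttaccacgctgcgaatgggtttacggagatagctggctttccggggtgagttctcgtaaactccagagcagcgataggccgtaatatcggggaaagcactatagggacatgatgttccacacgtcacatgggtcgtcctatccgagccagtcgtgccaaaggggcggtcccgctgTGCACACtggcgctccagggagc
Mt2, chr8:94172368-94172617, plus strand: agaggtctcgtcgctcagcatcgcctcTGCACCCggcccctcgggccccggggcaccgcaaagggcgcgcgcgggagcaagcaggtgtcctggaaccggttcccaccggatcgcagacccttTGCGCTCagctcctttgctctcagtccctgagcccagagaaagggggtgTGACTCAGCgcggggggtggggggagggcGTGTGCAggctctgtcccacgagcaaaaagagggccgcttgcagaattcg
The Mt1 window held 1 metal response element match, and the Mt2 window held 3 together with 1 antioxidant response element match. Among all 32851 RefSeq promoter windows of that length, 21.4% held at least 1 metal response element match, 5.17% held 2 or more and 10.2% held an antioxidant response element match. Neither window contained the letters TATAAA, and where transcription starts in these cells was not measured, so either window may miss part of the proximal promoter. The Mt2 window ends upstream of the annotated gene start given above, and the Mt1 window ends just past it. With the next 50 bases included, the Mt1 window held 3 metal response element matches and the Mt2 window 4, where 0.517% of windows held 4 or more. Of the 10 members, 9 had an entry in the promoter table. Gclm held 2 metal and 1 antioxidant response element match, of which 1 of each overlapped. Srxn1 held 1 metal match, and so did each Gstm1 entry. One of the 3 Txnrd1 entries held 1 antioxidant match, and Nqo1, Slc7a11 and Osgin1 held neither. A match describes letters in this window, and no binding was measured.

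In both T cell libraries, Mt1, Mt2 and Gstm1 were highest in fibroblasts, Hmox1, Slc7a11, Txnrd1 and Osgin1 in neutrophils, and Gclm was near level across all 5 gates. Srxn1 had no top gate common to both. Mt1 was at 5058 CPM (sensitive) and 7063 CPM (resistant) in fibroblasts, above 1519 and 1926 CPM in macrophages, which were above 1034 and 563 CPM in cancer cells. The neutrophil gate (206 and 419 CPM) and the T gate (212 and 294 CPM) overlapped in range at the low end. Mt2 reached 1487 and 2011 CPM in fibroblasts, and its ranges overlapped between cancer cells (243 and 127 CPM) and macrophages (184 and 157 CPM). It was at 28.3 and 49.97 CPM in the T gate, and only 4 UMIs were seen in the neutrophil gate of each library.

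**Figure D1:**
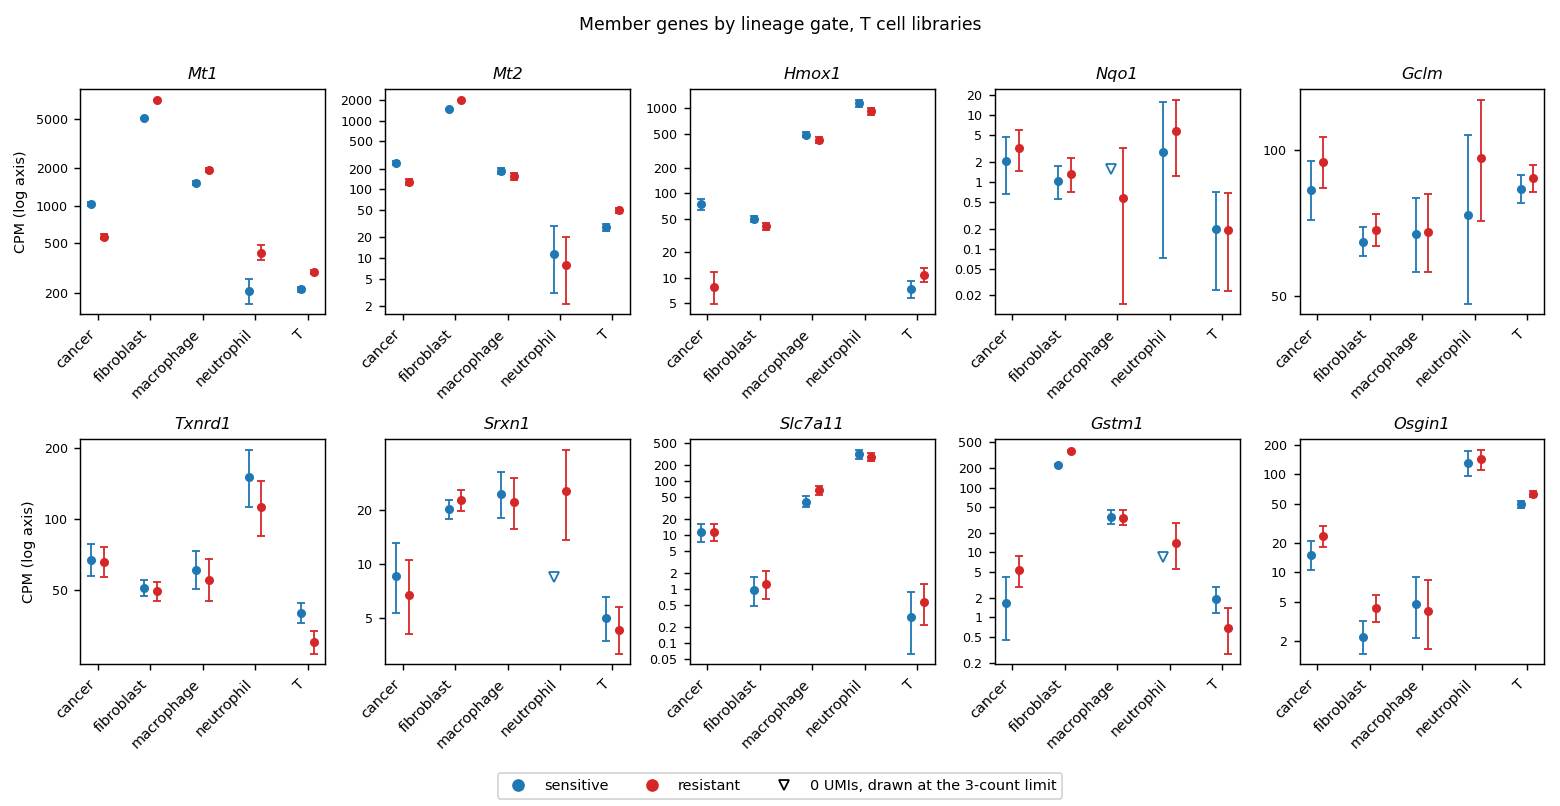
CPM of each member (log axis) in the 5 lineage gates of the sensitive (blue) and resistant (red) T cell libraries, with exact 95% Poisson intervals and open triangles at the limit that a count of 0 allows. Mt1 and Mt2 are highest in fibroblasts in both libraries, and Hmox1 and Slc7a11 in neutrophils.

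Hmox1 encodes heme oxygenase 1, which opens heme to biliverdin, carbon monoxide and iron. It was at 1151 and 922 CPM in neutrophils and 488 and 422 CPM in macrophages, and at most 73.8 CPM in any other gate. Nqo1, the NAD(P)H quinone reductase and a common readout of NRF2, did not exceed 5.90 CPM in any gate, and its largest count was 13 UMIs. Only the fibroblast gate had enough Nqo1 UMIs for a comparison, at 1.03 and 1.34 CPM with 13 UMIs in each library, and the interval of the ratio (0.328 to 1.80) held 1.

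Among the glutathione genes, Gclm, the modifier subunit of glutamate-cysteine ligase, stayed between 64.7 and 96.4 CPM in all 5 gates of both libraries. Slc7a11, the cystine importer that feeds glutathione synthesis, was steeply graded: 314 and 273 CPM in neutrophils, 41.2 and 66.6 CPM in macrophages, 11.1 and 11.3 CPM in cancer cells, 0.949 and 1.24 CPM in fibroblasts, and 0.299 and 0.574 CPM in T cells. Gstm1, a glutathione S-transferase, was at 219 and 371 CPM in fibroblasts and 34.8 and 34.5 CPM in macrophages, and at or under 13.8 CPM elsewhere. Gstm1 has close paralogs, so the assignment of its reads is uncertain.

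Of the thioredoxin genes, Txnrd1, the cytosolic thioredoxin reductase, was at 150 and 112 CPM in neutrophils, 67.2 and 65.9 CPM in cancer cells, 61.2 and 55.5 CPM in macrophages, 51.4 and 49.6 CPM in fibroblasts and 40.1 and 30.2 CPM in T cells. Srxn1, sulfiredoxin, which repairs over-oxidized peroxiredoxins, was at 24.8 and 22.2 CPM in macrophages and 20.3 and 22.8 CPM in fibroblasts, ranges that overlapped, and at 4.99 and 4.31 CPM in T cells. Neutrophils were the highest Srxn1 gate among resistant cells, at 25.6 CPM, and had 0 UMIs among sensitive ones. Osgin1, an oxidative stress-induced growth inhibitor, followed a different order: 130 and 142 CPM in neutrophils, then 49.5 and 63.4 CPM in T cells, 15.2 and 23.4 CPM in cancer cells, and 4.75 CPM or less in macrophages and fibroblasts.

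Marker transcripts of other cells were present in each gate, at shares that varied with gene and gate. Lyz2 in neutrophils stood at 7.10% (sensitive) and 19.1% (resistant) of its macrophage level in the T cell libraries. Krt19, a cancer gene, stood at 5.78% of its cancer level in sensitive fibroblasts. In whole tumors, Apoe stood at 7.73% of its macrophage level in resistant neutrophils, and Krt19 at 152% of its cancer level in control fibroblasts, from 9 UMIs. Shares in the T gate were lower. In the T gate, the fibroblast gene Col3a1 stood at 0.191% (sensitive) and 0.0547% (resistant) of its fibroblast level, and Sparc at 0.407% and 0.110%. Mt1 in the same gate stood at 4.20% and 4.16% of its fibroblast level. Gstm1 in T cells stood at 0.865% and 0.180% of its fibroblast level, against 0.407% and 0.110% for Sparc. Slc7a11 in T cells stood at 0.0954% and 0.210% of its neutrophil level, where S100a8 stood at 0.00515% and 0.0364%. Red cell hemoglobin transcripts summed to 0 or 1 UMI per gate in the T cell libraries, to 0 in the treated whole tumors and to 1 to 7 UMIs per gate in the control tumor.

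Sensitive and resistant libraries differed by less than 2-fold for most members. Among genes with at least 20 UMIs in both T cell libraries together, 1 of 8 members passed 2-fold higher in sensitive in the cancer gate, where 2.77% of all genes did, and none passed lower, against 2.33% (5.10% in either direction). In fibroblasts, 0 of 10 members passed in either direction, against 5.84% of all genes (4.29% higher, 1.56% lower). In macrophages 0 of 8 passed, against 6.78% (3.60% higher, 3.17% lower). In neutrophils, 1 of 6 passed lower, against 6.46%, and none higher, against 3.75% (10.2% in either direction). In T cells, 1 of 8 passed higher, against 5.68%, and none lower, against 1.57% (7.25% in either direction). The median sensitive over resistant ratio of the members tested was 0.767 in fibroblasts beside 1.06 over all genes, 0.866 in T cells beside 1.11, 1.15 in cancer cells beside 1.03, 1.06 in macrophages beside 1.01 and 1.03 in neutrophils beside 1.01.

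**Figure D2:**
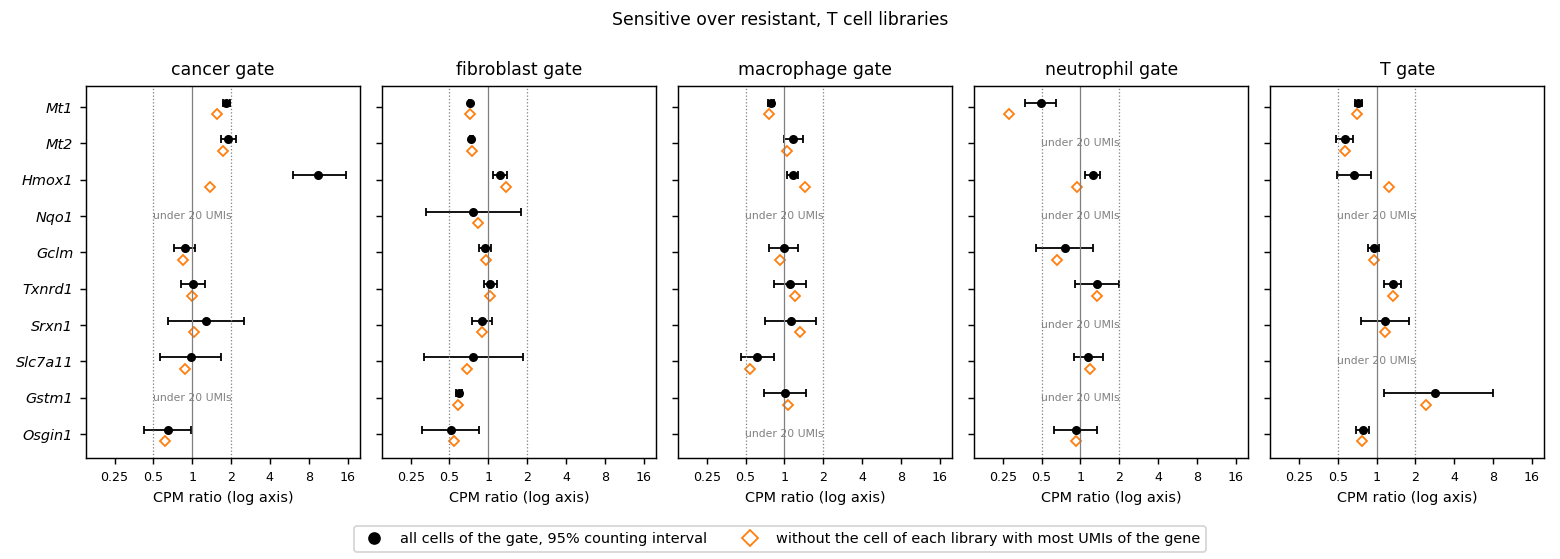
Sensitive over resistant CPM ratio (log axis) of each member by lineage gate in the T cell libraries, with exact 95% counting intervals; dotted lines mark 2-fold. Orange diamonds leave out the cell with most UMIs of the gene in each library: Hmox1 in the cancer gate falls from 9.46 to 1.38.

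Both metallothioneins were lower in fibroblasts of the sensitive library. The Mt1 ratio was 0.716 (95% counting interval 0.708 to 0.724; 63969 and 68504 UMIs) and the Mt2 ratio was 0.739 (0.725 to 0.754). Nearly every fibroblast carried Mt1 (98.1% and 98.8% of cells), and the cell with most Mt1 held 1.89% of the sensitive library's UMIs, so the level did not rest on a few cells. Gstm1 moved the same way, at 0.590 (0.561 to 0.620), and Osgin1 at 0.511 from 28 and 42 UMIs. Hmox1 was slightly higher, at 1.23 (1.08 to 1.40), while Gclm (0.946), Txnrd1 (1.04) and Srxn1 (0.892) had intervals that held 1. In cells with a UMI of Pi16, a marker of universal fibroblasts chosen after these values were seen, Mt1 was at 5259 CPM (687 cells) and 7246 CPM (544 cells), and Gstm1 at 261 and 397 CPM. The 45 sensitive fibroblasts with Acta2 and Tagln but no Pi16, genes of contractile fibroblasts, held less of both, with Mt1 at 2491 CPM and Gstm1 at 11.0 CPM. The 65 sensitive fibroblasts without Pi16, Acta2 or Tagln held more Mt1, at 6848 CPM, and Gstm1 at 81.2 CPM.

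The cancer gate went the other way for metallothioneins. Mt1 was at 1034 CPM among sensitive and 563 CPM among resistant cells (ratio 1.84, 1.72 to 1.96), and Mt2 at 243 and 127 CPM (1.91, 1.67 to 2.18). Without the cell richest in each gene per library, the ratios were 1.55 and 1.72, and when any marker of another lineage barred a cell from the gate the Mt1 ratio was 1.01. Hmox1 passed 2-fold, at 73.8 against 7.80 CPM, but 160 of its 180 sensitive UMIs lay in 1 cell, and the ratio was 1.38 without the top cells. Gclm, Txnrd1, Srxn1 and Slc7a11 had ratios between 0.875 and 1.28, and the interval of each held 1. Osgin1 was at 15.2 and 23.4 CPM (0.648, 0.421 to 0.984).

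In macrophages Mt1 was at 0.789 of the resistant level (0.750 to 0.830), while Mt2 was at 1.18 (1.00 to 1.38) and Hmox1 at 1.16 (1.05 to 1.28). Without the top cells the ratios were 0.764 for Mt1, 1.04 for Mt2 (0.876 to 1.25, which held 1) and 1.44 for Hmox1 (1.28 to 1.61). Slc7a11 was lower in sensitive macrophages, at 41.2 against 66.6 CPM (0.618, 0.457 to 0.832). Gclm (0.989), Gstm1 (1.01), Txnrd1 (1.10) and Srxn1 (1.12) had intervals that held 1. Sparc, a fibroblast gene, was at 4.57% of its fibroblast level in resistant and 0.117% in sensitive macrophages. Col3a1, also a fibroblast gene, went the other way, at 0.0417% and 0.0790%. The summed level of 6 dissociation stress genes was 2317 CPM in resistant and 1396 CPM in sensitive macrophages. Their median sensitive over resistant ratio was 0.916 beside 1.01 over all genes. Of the 6, 2 passed 2-fold higher in sensitive, against 3.60% of all genes, and none lower, against 3.17%. The part of these genes in the member ratios was not tested. The 25 sensitive macrophages with a UMI of Cd163, the hemoglobin-haptoglobin receptor, held Mt1 at 752 CPM against 1676 CPM in the 147 without, and Hmox1 at 444 against 496 CPM, a split chosen after these values were seen. Among macrophages without Cd163, Mt1 was at 1676 CPM in sensitive and 1941 CPM in resistant (135 of the 137 cells).

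Neutrophils held Mt1 in few cells. A UMI was found in 13.1% of sensitive and 17.9% of resistant neutrophils, with 73 and 213 UMIs, and 1 sensitive cell held 40 of the 73. The ratio of 0.493 (0.372 to 0.646) passed 2-fold and ranged from 0.202 to 0.896 over the alternative settings. The macrophage gene Apoe was at 175 CPM in sensitive and 387 CPM in resistant neutrophils, and its part was not tested. Hmox1 was at a ratio of 1.25 (1.09 to 1.43), or 0.943 without the top cells, of which the sensitive one held 124 UMIs. The intervals for Slc7a11 (1.15), Txnrd1 (1.34), Gclm (0.763) and Osgin1 (0.919) held 1. Srxn1 had 0 UMIs in the sensitive gate, where 3 counts, the limit used for a count of 0, would be 8.48 CPM (exact Poisson upper bound 10.4 CPM), and 13 UMIs in the resistant one.

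T cells from sensitive tumors held less metallothionein RNA. Mt1 was at 212 against 294 CPM (0.723, 0.684 to 0.765) and Mt2 at 28.3 against 49.97 CPM (0.567, 0.489 to 0.657). Osgin1 was lower, at 49.5 against 63.4 CPM (0.781, 0.694 to 0.879), Txnrd1 was higher, at 40.1 against 30.2 CPM (1.33, 1.15 to 1.55), and Gclm did not differ beyond counting error (0.951, 0.865 to 1.05). In this gate the median gene stood at a ratio of 1.11, a log2 shift of 0.15. The summed level of the 6 dissociation stress genes was 899 CPM in sensitive and 589 CPM in resistant T cells. Their median ratio was 1.04, under that of the median gene. Of the 6, 1 passed 2-fold higher in sensitive, against 5.68% of all genes, and none lower, against 1.57%. The part of these genes was not tested. Relative to the median gene the ratios were 0.651 for Mt1, 0.511 for Mt2, 0.703 for Osgin1 and 1.20 for Txnrd1. A Mt1 UMI was found in 19.9% of sensitive and 27.5% of resistant T cells, and with each cell thinned to 1000 UMIs in 8.23% and 10.8%. Gstm1 passed 2-fold higher in sensitive (2.83, 1.14 to 7.97) on 19 and 7 UMIs. Fibroblast genes moved with it: Sparc was at 45.8 and 12.1 CPM and Col3a1 at 21.7 and 6.13 CPM in the same cells. Their part was not tested; the Gstm1 ratio was 1.497 when cells with any marker of another lineage were barred, and 1.20 without doublet removal. Hmox1 was at a ratio of 0.673 with all cells and 1.25 without the top cell of each library.

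CD8 cells made up most of the T gate (1315 sensitive and 1560 resistant cells) and held less metallothionein RNA in the sensitive library. Mt1 was at 200 and 319 CPM in CD8 cells (0.626, 0.586 to 0.669; 0.642 without the top cells) and Mt2 at 24.7 and 54.4 CPM (0.454, 0.378 to 0.544; 0.474 without them). Gclm was at 81.7 and 87.1 CPM, Txnrd1 at 41.0 and 31.3 CPM, and Osgin1 at 64.0 and 65.2 CPM. CD8 cells with a UMI of Pdcd1, the gene of the checkpoint receptor PD-1, held more Mt1 than those without in both libraries, by 1.51 (1.33 to 1.72) in sensitive and 1.88 (1.69 to 2.10) in resistant, and more Mt2, by 2.70 (1.76 to 4.28) and 1.58 (1.23 to 2.05). Between libraries, the Mt1 ratio was 0.636 in Pdcd1-positive and 0.792 in Pdcd1-negative CD8 cells. One resistant Pdcd1-negative cell held 128 of 374 Mt1 UMIs, and without the top cells that ratio was 0.926 (0.774 to 1.11), an interval that held 1. Mt2 had the opposite order, at 0.532 in Pdcd1-positive and 0.312 in Pdcd1-negative cells (0.560 and 0.398 without the top cells). Median depth was 4644 and 3438 UMIs in sensitive Pdcd1-positive and Pdcd1-negative cells, and 5277 and 3726 UMIs in resistant ones; its part was not tested.

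**Figure D3:**
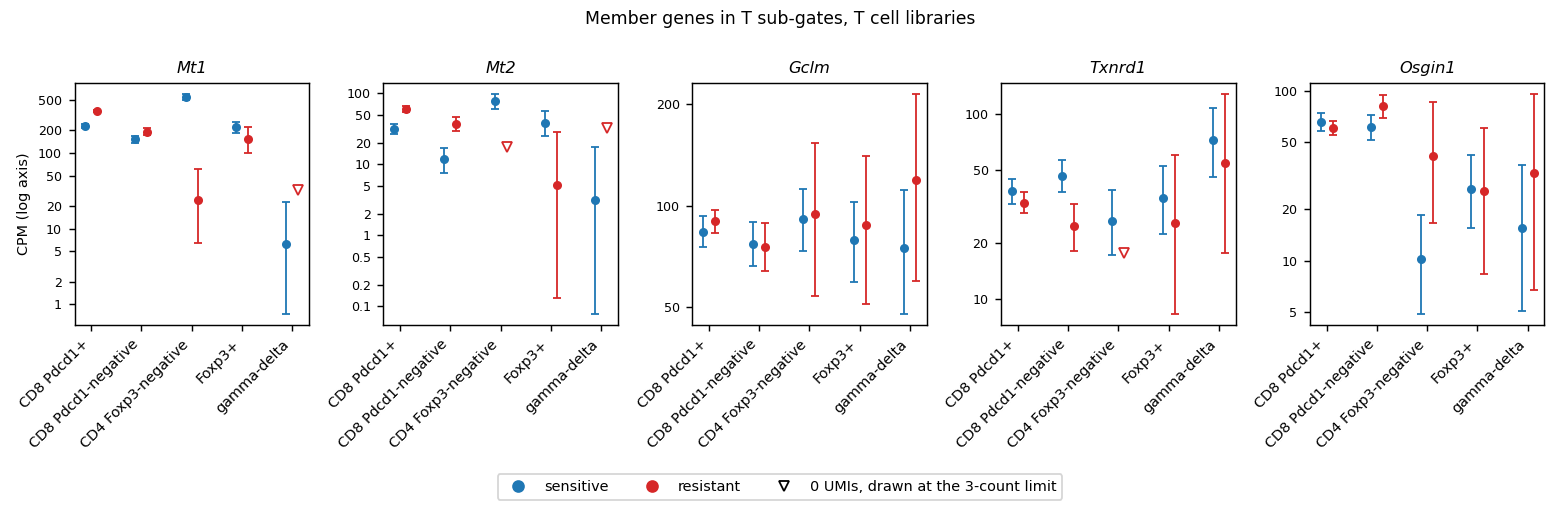
CPM (log axis) of 5 members in sub-gates of the T gate of the sensitive (blue) and resistant (red) T cell libraries, with exact 95% Poisson intervals and open triangles at the limit that a count of 0 allows. Mt1 is higher in Pdcd1-positive than in Pdcd1-negative CD8 cells in both libraries, and Gclm is near level.

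Foxp3-negative CD4 cells had more metallothionein UMIs in the sensitive library. Mt1 was at 540 CPM in 178 sensitive cells and 23.7 CPM in 45 resistant cells, from 532 and 4 UMIs. A single sensitive cell held 244 of the 532, and a UMI was found in 33 of 178 and 3 of 45 cells. Mt2 had 76 and 0 UMIs there. Foxp3+ cells, the regulatory T cells, held Mt1 at 218 and 150 CPM in 98 and 34 cells, with an interval of the ratio (0.973 to 2.25) that held 1; without the top cells the ratio was 1.67 (1.02 to 2.87). Mt2 had 26 and 1 UMIs in Foxp3+ cells (7.37, 1.21 to 302). In gamma-delta cells Mt1 was almost undetected, with 2 UMIs in 82 sensitive cells (2.44% of cells) and 0 UMIs in 21 resistant cells, while Txnrd1 was at 71.7 and 54.4 CPM in the same cells.

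Mt1 and Mt2 rose and fell together from cell to cell. Pearson's r of their log levels was 0.81 and 0.89 in sensitive and resistant fibroblasts (797 and 573 cells), 0.69 and 0.57 in cancer cells, 0.61 and 0.58 in macrophages and 0.46 and 0.55 in T cells. These are descriptions over cells of 1 library, which share its depth, and the paralogs are close in sequence. No other pair of members with enough cells passed 0.424, the value for Mt2 and Hmox1 in resistant macrophages. In fibroblasts, pairs other than Mt1 with Mt2 lay between -0.10 and 0.13. Over the 10 pools of gate and library, the members most alike were Mt1 and Mt2 (r of 0.934), Mt1 and Gstm1 (0.923) and Hmox1 and Slc7a11 (0.912). Of all 12320 genes compared over the same pools, Lrp1 was most like Mt1 (0.979), Vkorc1 most like Mt2 (0.976), Tlr2 most like Hmox1 (0.969), Oasl1 most like Slc7a11 (0.993), Pkdcc most like Gstm1 (0.987) and Il18rap most like Osgin1 (0.978). The pools are the same 5 gates in 2 libraries, and each named gene is the highest of 12320. A high r therefore says little about any single gene, and Phf10 nearly tied with Lrp1 for Mt1 (0.978).

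Mt2 relative to Mt1 differed between lineages. For every 100 Mt1 UMIs there were 29.4 and 28.5 Mt2 UMIs in sensitive and resistant fibroblasts, 23.5 and 22.6 in cancer cells, 13.3 and 17.0 in T cells and 12.1 and 8.13 in macrophages. Neutrophils had 5.48 and 1.88, from 4 Mt2 UMIs in each library. In whole tumors cancer cells also held more than macrophages, with 94.9 (control) and 74.1 (resistant) against 16.5 and 21.8. Neutrophils there had 25.4 (control), 12.6 (sensitive) and 28.4 (resistant); the control and resistant intervals overlapped those of macrophages, and 1 resistant neutrophil held 40 of the 61 Mt2 UMIs. The annotation and counting version of those libraries cannot be told apart from the tumors themselves.

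**Figure D4:**
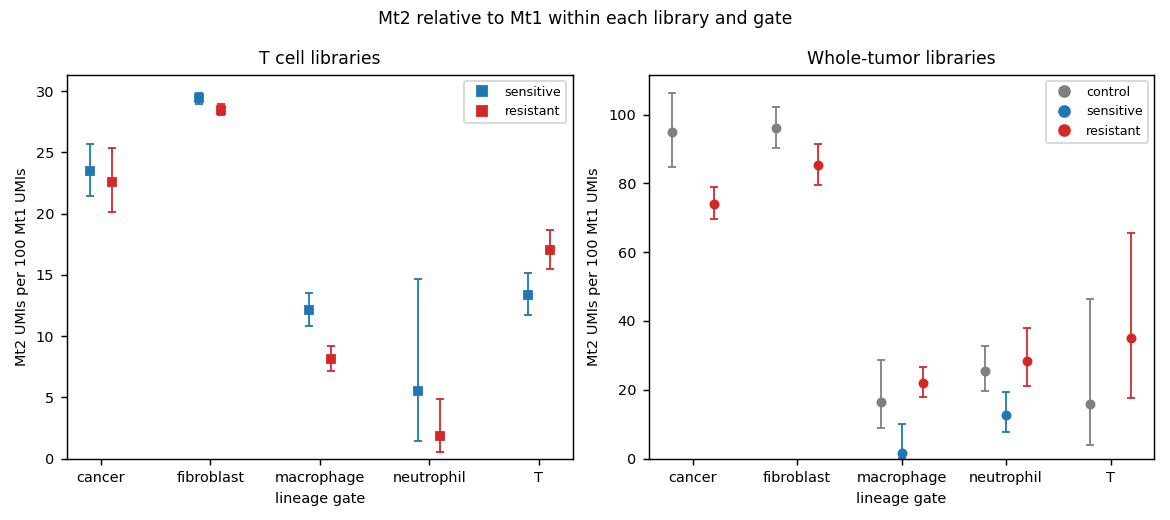
Mt2 UMIs per 100 Mt1 UMIs by lineage gate, T cell libraries at left and whole tumors at right (gates of at least 5 cells), with exact 95% counting intervals. Cancer cells and fibroblasts hold more Mt2 per Mt1 than macrophages do in both kinds of library.

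The whole tumors add an untreated control. Only neutrophils could be compared in all 3 libraries, and cancer cells only between resistant (42 cells) and control (31 cells). In neutrophils, 2 of 8 members passed 2-fold higher in sensitive over control, where 11.1% of all genes did, and 1 passed lower, against 3.99% (15.1% in either direction). For resistant over control, 1 of 8 passed higher, against 10.2%, and 1 lower, against 4.41% (14.6% in either direction). In sensitive over resistant neutrophils, 2 of 8 passed higher and 2 lower, against 4.62% in each direction and 9.23% in either. For resistant over control cancer cells, 4 of 8 passed higher, against 8.28%, and none lower, against 3.26% (11.5% in either direction). These comparisons share libraries and are not independent.

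Osgin1 was higher in neutrophils of both treated tumors. It was at 93.9 CPM in control, 284 CPM in sensitive and 290 CPM in resistant neutrophils, from 59, 105 and 95 UMIs. Both treated libraries lay above the control, by 3.03 (2.18 to 4.24) and 3.08 (2.21 to 4.34), and did not differ from each other beyond counting error (0.981, 0.736 to 1.31). The median gene was higher in treated neutrophils, by log2 shifts of 0.18 and 0.17, and relative to it the Osgin1 ratios were 2.67 and 2.75. Genes of immature neutrophils moved with treatment: 18.3% of control neutrophils had a UMI of Ngp or Camp, both granule genes, against 9.31% (sensitive) and 3.01% (resistant). Without those cells, a step chosen after seeing the data, the Osgin1 ratios were 2.63 and 2.57.

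Hmox1 was at 482 CPM in control, 969 CPM in sensitive and 649 CPM in resistant neutrophils. Sensitive was 2.01-fold over control (1.72 to 2.35) and resistant 1.35-fold (1.12 to 1.61). Control neutrophils with Ngp or Camp held Hmox1 at 203 CPM, and without such cells the control stood at 629, sensitive at 1043 and resistant at 669 CPM, leaving ratios of 1.66 (1.40 to 1.96) and 1.06 (0.883 to 1.28). Mt1 was at 482, 517 and 656 CPM, and at 690, 553 and 675 CPM without the Ngp or Camp cells, so its resistant over control ratio went from 1.36 to 0.979. Mt2 was at 123, 64.9 and 186 CPM from 77, 24 and 61 UMIs, a sensitive over resistant ratio of 0.349 (0.208 to 0.568). Single cells weighed on both metallothioneins: 1 sensitive neutrophil held 100 of the 191 Mt1 UMIs, and without the top cells the ratios to control were 0.695 (Mt1) and 0.200 (Mt2) in sensitive, and 1.16 and 0.812 in resistant. The macrophage gene Apoe was at 92.3 (control), 211 (sensitive) and 927 CPM (resistant) in the 3 neutrophil gates. Lyz2 was at 928, 354 and 2052 CPM, so it was lower in sensitive than in control. In these gates Lyz2 stood at 16.6%, 7.69% and 38.9% of its macrophage level. The part of both genes in these levels was not tested.

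Gclm was lowest in sensitive neutrophils, at 93.9 (control), 32.5 (sensitive) and 76.2 CPM (resistant), from 59, 12 and 25 UMIs. It passed 2-fold lower against both, at 0.346 (0.169 to 0.650) of control and 0.426 (0.195 to 0.880) of resistant. Ngp or Camp cells of the control held Gclm at 143 CPM, and without such cells the ratios were 0.423 and 0.377. Over all alternative settings the ratio to control ranged from 0.298 to 0.621, and that to resistant from 0.362 to 0.517. Txnrd1 was at 47.7, 78.5 and 30.5 CPM, with a sensitive over resistant ratio of 2.57 (1.22 to 5.92) from 29 and 10 UMIs. Srxn1 was at 43.0, 43.3 and 15.2 CPM, lower in resistant than in control at 0.355 (0.107 to 0.934) from 5 and 27 UMIs; sensitive over resistant was 2.84, with an interval (0.994 to 9.91) that held 1, and 1.81 without the Ngp or Camp cells, under 2-fold. Slc7a11 stayed at 145, 127 and 125 CPM. Gstm1 and Nqo1 had 4 UMIs or fewer in any library.

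**Figure D5:**
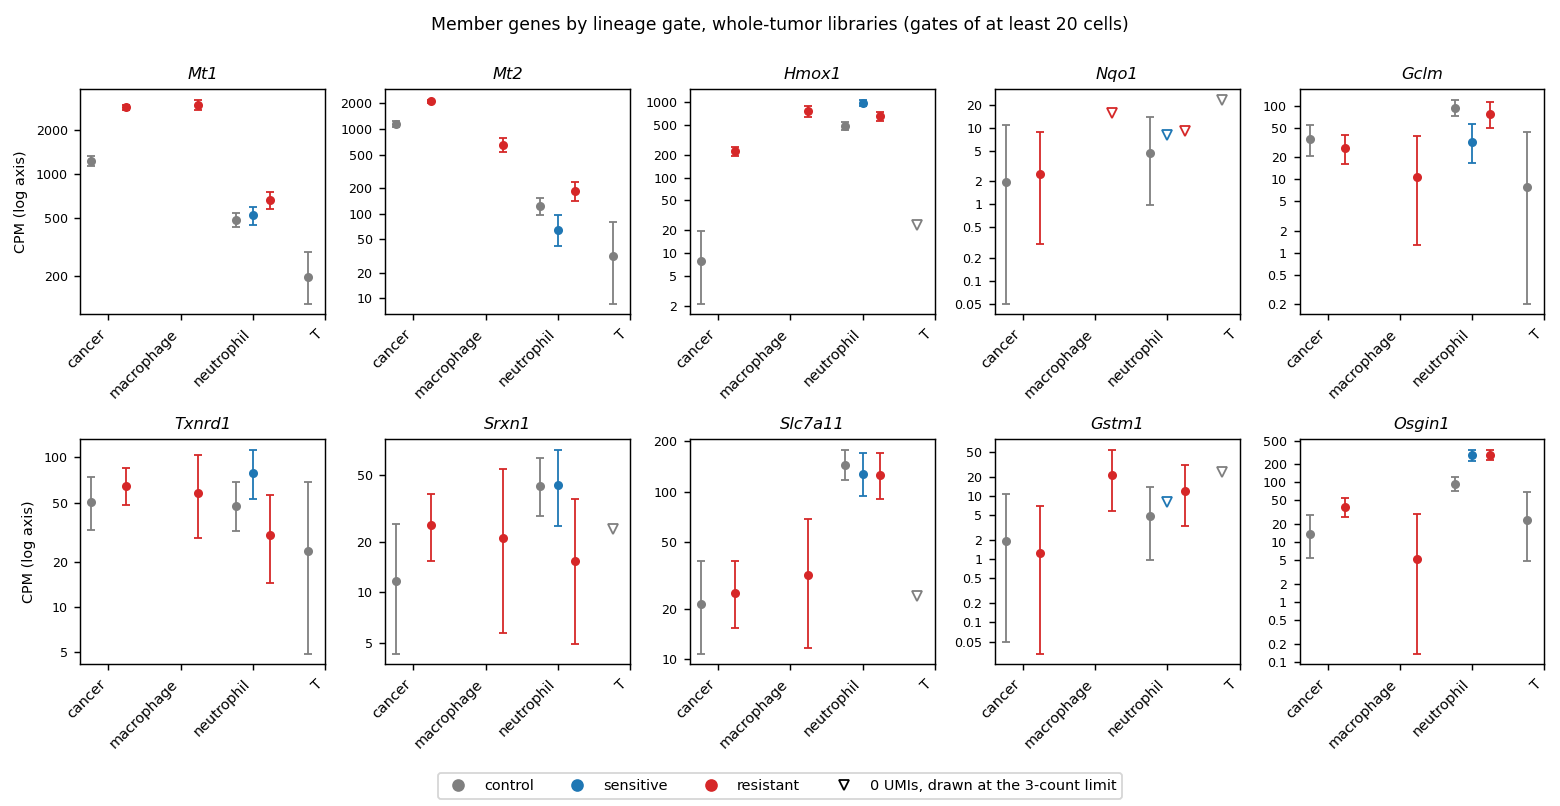
CPM of each member (log axis) in the lineage gates of the control (grey), sensitive (blue) and resistant (red) whole tumors that held at least 20 cells, with exact 95% Poisson intervals and open triangles at the limit that a count of 0 allows. In neutrophils Osgin1 is higher in both treated tumors than in the control, and Gclm is lowest in the sensitive one.

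Cancer cells of the resistant whole tumor held more metallothionein RNA than those of the control. Mt1 was at 2862 against 1220 CPM (2.35, 2.15 to 2.57; 2.25 without the top cells), and Mt2 at 2121 against 1158 CPM (1.83, 1.67 to 2.02; 1.60 without them). One resistant cell held 680 of the 2295 Mt1 UMIs. Osgin1 was at 38.7 against 13.6 CPM (2.84, 1.23 to 7.64) from 31 and 7 UMIs. Hmox1, at 222 against 7.78 CPM, again rested on 1 cell, and its ratio went from 28.5 to 1.87 without the top cells. Srxn1 was at 24.9 against 11.7 CPM from 20 and 6 UMIs (2.14, 0.828 to 6.50), and 1.28 without the top cells. Gclm (0.748), Txnrd1 (1.28) and Slc7a11 (1.17) had intervals that held 1. The neutrophil genes S100a8 and S100a9 were at 0.694% and 0.705% of their neutrophil level in resistant cancer cells and 0.696% and 0.921% in control ones. The macrophage genes moved with the metallothioneins: Apoe was at 54.9 CPM in resistant and 13.6 CPM in control cancer cells, and Lyz2 at 32.4 and 9.73 CPM. Their part was not tested.

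A list of 70 other genes of the same pathways gave the surroundings in the T cell libraries. Of those with enough UMIs, 1 of 57 passed 2-fold higher in sensitive cancer cells (2.77% of all genes did), 2 of 65 in fibroblasts (4.29%), 2 of 57 in macrophages (3.60%), 1 of 33 in neutrophils (3.75%) and 4 of 61 in T cells (5.68%). None passed lower in cancer cells (2.33%) or fibroblasts (1.56%), 2 did in macrophages (3.17%), 5 in neutrophils (6.46%) and 1 in T cells (1.57%). Most of these counts lie near the shares over all genes. In macrophages Cd163 was at 528 against 7.59 CPM from 1001 and 13 UMIs, and Tfrc, the transferrin receptor, at 33.2 against 8.76 CPM. In neutrophils Cybb, the catalytic subunit of the phagocyte NADPH oxidase, was at 33.9 against 279 CPM, and the pentose phosphate enzymes G6pdx (19.8 against 62.9 CPM) and Tkt (48.1 against 140 CPM) were also lower. Lyz2 (659 against 1882 CPM) and the median mitochondrial share (1.32% against 5.38%) were lower in the same cells, and their part was not tested. Lyz2 was followed as a macrophage gene, but stood at 7.10% and 19.1% of its macrophage level in neutrophils, against 0.411% and 0.333% in T cells. Whether its RNA here came from macrophages or from the neutrophils was not tested. Txnip, an inhibitor of thioredoxin, was at 416 against 207 CPM in neutrophils. In fibroblasts Chac1, which degrades glutathione, was at 10.1 against 3.51 CPM, and the microsomal transferase Mgst3 at 27.5 against 13.4 CPM. In T cells, Prdx4, a peroxiredoxin of the endoplasmic reticulum, was at 34.3 against 15.9 CPM, Maff, a small MAF partner of NRF2, at 16.6 against 7.95 CPM, and the extracellular superoxide dismutase Sod3 at 4.49 against 1.34 CPM. Sod3 was at 1385 and 1272 CPM in fibroblasts, and the fibroblast genes Sparc and Col3a1 moved the same way in these T cells; their part was not tested. The third metallothionein, Mt3, was at 5.79 against 13.1 CPM from 58 and 137 UMIs (0.441, 0.319 to 0.604), the same direction as Mt1 and Mt2. The list of NRF2, KEAP1 and related regulators had a median ratio of 1.25 in T cells (9 genes) beside 1.11 over all genes. It was at 1.28 in neutrophils (7 genes) beside 1.01. In the other gates it was at 0.939 in cancer cells beside 1.03, 0.942 in macrophages beside 1.01 and 1.09 in fibroblasts beside 1.06. The glutathione list was also at 1.25 in T cells, and at 0.764 in neutrophils.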

How the data were processed

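The authors deposited raw UMI counts per gene and cell barcode, made with Cell Ranger 6.0.0 (T cell libraries) or 3.0.1 (whole tumors) on mm10 per the submitters' processing notes. Mitochondrial features had no UMIs in the whole tumors. Here a barcode needed 500 detected genes and a mitochondrial share of no more than 10% in the T cell libraries, and 200 detected genes in the whole tumors. In the T cell libraries, the cells with the highest Scrublet scores (scanpy 1.11.5) were removed as doublets at 0.8% per 1000 barcodes, 112 in sensitive and 159 in resistant. A gate needed 2 of 6 markers and at least 2 times the markers of any other lineage. Between 8.12% and 18.2% of kept cells fell in no gate. Whole-tumor features were matched by Ensembl identifier. UMIs were summed per gate, with exact Poisson 95% intervals for levels and exact conditional binomial 95% intervals for ratios. With 1 library per group, no test was run. A gene was called at 2-fold or more, among genes with at least 20 UMIs in both libraries together, in gates of at least 20 cells in each. The code was tested on simulated data. All 10 members are named, and from the pathway list examples among the 3 highest and 3 lowest ratios per gate. Genes of like pattern had the highest Pearson r of log2(CPM + 10) over pools. Members, markers and lists were chosen with earlier results of these data known. Gene positions are from the GRCm38 annotation and promoters from RefSeq. Alternatives varied filters, doublets, gates, scaling and thresholds.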

Additional observations from a re-analysis of the deposited data

Results flagged for a closer look

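Srxn1 lay on opposite sides of 1 in the 2 gates of the whole tumors that could be compared between resistant and control. The ratio was 2.14 in cancer cells (20 against 6 UMIs, 24.9 against 11.7 CPM), with a counting interval of 0.828 to 6.50 that held 1, and 0.355 in neutrophils (5 against 27 UMIs, 15.2 against 43.0 CPM; 0.107 to 0.934). A single resistant cancer cell held 12 of the 20 UMIs, and without the top cell of each library the cancer cell ratio was 1.28 (0.342 to 5.79). The difference between the gates was not tested, and each value comes from 1 library per group.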

How the results depend on the processing

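No paired analysis was possible because each group holds 1 library. As reported, 2 members passed 2-fold higher and 1 lower in the T cell libraries (summed over gates), 2 and 1 for sensitive over control, 5 and 1 for resistant over control, and 2 and 2 for sensitive over resistant whole tumors. A count not named below was as reported under that setting. No share over all genes is given beside the counts of the alternative settings. They therefore describe how the calls shift, and not an excess over other genes. In the T cell libraries, 2 passed lower with no cell filter, 1 higher with no doublet removal, 1 higher and 3 lower when a marker of another lineage barred a cell, 2 lower with scaling to the median gene, 1 higher with the mean over cells, 1 higher with at least 50 UMIs, and 4 higher and 6 lower at 1.5-fold. For sensitive over control, 2 passed lower with a gate of 3 markers, 1 higher and 0 lower with other markers barred, 1 higher and 2 lower with median scaling, 1 higher with the mean over cells, and 3 higher and 2 lower at 1.5-fold. For resistant over control, 1 passed higher and 2 lower with other markers barred (neutrophils alone, since the cancer gate had too few cells to compare), 2 lower with the mean over cells, 3 higher and 0 lower with at least 50 UMIs, 7 higher with a gate of 3 markers, and 7 higher and 2 lower at 1.5-fold. For sensitive over resistant, 1 passed higher and 3 lower with a gate of 3 markers, 1 higher and 0 lower with other markers barred (Mt2, at 0.0578, had too few UMIs to be counted and Gclm was at 0.517), and 0 higher and 1 lower with at least 50 UMIs. Chosen after seeing the data, leaving out the cell with most UMIs of the gene in each library gave 1 higher in the T cell libraries, 1 higher and 2 lower for sensitive over control and 3 higher for resistant over control, and leaving out neutrophils with Ngp or Camp gave 1 higher and 2 lower for sensitive over control and 1 higher for sensitive over resistant. The cause of these shifts was not tested. Among these settings, the Osgin1 ratio in neutrophils stayed between 2.47 and 3.11 (sensitive over control) and between 2.33 and 3.18 (resistant over control). Without thinning, 84 of 100 shares of cells with a UMI moved beyond their interval. Low counts limit the precision of many whole-tumor ratios.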

Other observations

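In the resistant whole tumor, 32 macrophage-gated cells held Mt1 at 2971 CPM, Mt2 at 649 CPM and Hmox1 at 755 CPM, with Gclm at 10.6 CPM and Osgin1 at 5.28 CPM. The other whole tumors held 9 (control) and 6 (sensitive) such cells, so no ratio was taken. The 72 T-gated cells of the control tumor held Mt1 at 197 CPM and Mt2 at 31.5 CPM, with 0 UMIs of Hmox1.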
